A study of Homo sapiens with 19 samples.

Results

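The MAGEA genes are a family of cancer-testis antigen genes on the human X chromosome, and their transcripts were followed here in PMA-differentiated THP-1 cells with and without vitamin C (vit C). The members were the 10 genes named MAGEA1, MAGEA2, MAGEA3, MAGEA4, MAGEA6, MAGEA8, MAGEA9, MAGEA10, MAGEA11 and MAGEA12, matched by the gene name printed beside each probe of the array. Of the 10, 9 had at least 1 probe, which gave 11 probes among the 50238 probes and 31033 gene names measured. MAGEA2 had no probe of that name, and the probe named MAGEA2B, whose listed transcripts belong to both MAGEA2 and MAGEA2B, was well above background on 0 of 19 arrays. The family was chosen by its levels on this scale across all 8 groups, so its levels and differences are given as a description and no test was applied to them.

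THP-1 is an established human acute monocytic leukemia line, and PMA (phorbol myristate acetate) turns it into adherent macrophage-like cells. All flasks, controls included, received 30 nM PMA before a rest of a few hours. Control flasks were then left untreated (UT) and the others received 0.1 mM vit C, and RNA was taken at 8, 24, 48 and 96 h. The 19 one-colour arrays comprised 2, 3, 2 and 3 UT samples and 3, 2, 2 and 2 vit C-treated samples at 8, 24, 48 and 96 h, respectively. The methods describe the replicates as biological, from separate flasks of 1 cell line, so the spread covers flasks and not donors.

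MAGE-A proteins are normally made by germ cells of the testis, and their genes are silent in most other adult tissues, where their promoters carry CpG methylation. Many tumours express them again, and peptides cut from them can be shown to T cells on HLA molecules, which is how the family was discovered in melanoma. Inside the cell a shared MAGE homology domain lets these proteins bind RING-type ubiquitin ligases such as TRIM28.

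On GRCh38.p14 the 10 genes lie on chromosome X in the order MAGEA11, MAGEA9, MAGEA8, MAGEA4, MAGEA10, MAGEA3, MAGEA12, MAGEA2, MAGEA6 and MAGEA1, between base 149688193, where MAGEA11 starts, and base 153183880, where MAGEA1 ends. MAGEA4 spans chrX:151912474-151925170, MAGEA6 spans chrX:152766136-152769689 and MAGEA1 spans chrX:153179284-153183880. Each array probe is 60 bases long. The probes of the family that were detected on more than 2 arrays are shown here 5′ to 3′, together with that of MAGEA12, which overlaps the MAGEA6 probe but gave no signal above background (for MAGEA1 the opening 30 bases are given).
MAGEA1 probe, opening bases: cagattgggaaatccattctattttgtgaa
MAGEA4 probe: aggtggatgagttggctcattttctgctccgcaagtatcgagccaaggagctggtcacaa
MAGEA6 probe: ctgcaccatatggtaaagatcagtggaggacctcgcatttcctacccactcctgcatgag
MAGEA12 probe: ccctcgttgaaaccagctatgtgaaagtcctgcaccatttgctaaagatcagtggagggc

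How far a signal can be assigned to 1 gene depends on these sequences. The accessions listed for the MAGEA6 probe belong to both MAGEA3 and MAGEA6, so its signal can come from either transcript, whereas the MAGEA1, MAGEA4 and MAGEA12 probes each list 1 gene. The MAGEA6 and MAGEA12 probes share a stretch of 31 bases with 28 matches, and the capitals mark the 3 bases that differ.
MAGEA6 probe, shared stretch: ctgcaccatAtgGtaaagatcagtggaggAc
MAGEA12 probe, shared stretch: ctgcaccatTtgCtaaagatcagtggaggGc
The MAGEA9 probe likewise lists transcripts of MAGEA9 and MAGEA9B.

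Expression of the family was sparse in both UT and vit C-treated cells. A probe was counted as detected on an array where the scanner software marked its spot as well above background. Of the 9 genes with a probe, MAGEA3, MAGEA8, MAGEA9, MAGEA11 and MAGEA12 were detected on 0 of 19 arrays by the probes of their name. By those probes 5 of 9 genes (55.6%) were detected nowhere (for MAGEA3, the MAGEA6 probe also lists its transcript), beside 16.2% of all gene names and 32.4% of the 102 other cancer-testis genes with a probe. The MAGEA6 probe was detected on 16 arrays (9 of 10 UT and 7 of 9 vit C-treated), the MAGEA4 probe on 12 (5 UT and 7 vit C-treated) and the MAGEA1 probe on 7, all of them vit C-treated.

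**Figure D1:**
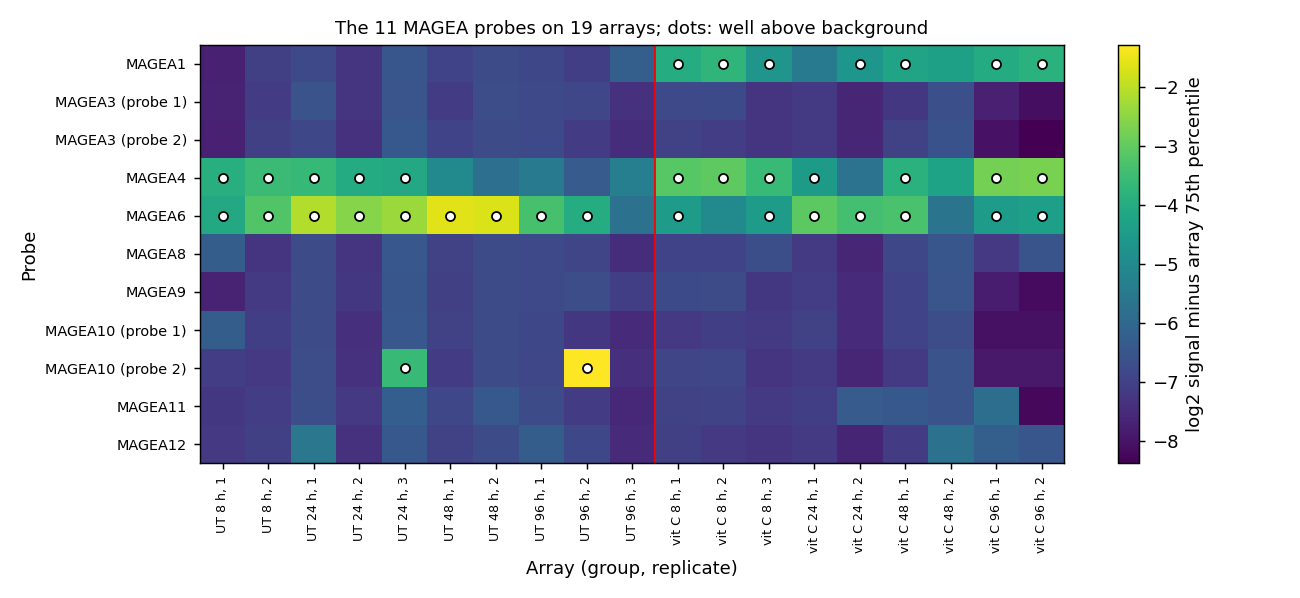
Level of the 11 MAGEA probes (vertical axis) on the 19 arrays (horizontal axis, group and replicate), as log2 signal minus the 75th percentile of the array; the colour gives the level, white dots mark spots well above background and the red line separates UT from vit C-treated arrays. The MAGEA1 probe has dots on 7 of the 9 vit C-treated arrays and on 0 of the 10 UT arrays.

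Signals of the family were low. All levels below are log2 of the processed signal minus the 75th percentile of the same array, so a level of 0 equals that percentile and negative levels lie under it. The 75th percentile lay between 290.2 and 903.5 signal units over the arrays, and the dimmest spot that was well above background gave between 11.7 and 17.1 units. The highest signal was 63.5 for MAGEA1, 139.4 for MAGEA4 and 111.2 for MAGEA6. No spot of the family was saturated or marked as an outlier. Because levels of different probes also depend on how well each probe binds, they were compared between arrays and not between genes.

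MAGEA1, the founding member of the family, was higher in vit C-treated than in UT cells at 8, 48 and 96 h. At 24 h its levels were also higher, but 1 of 2 vit C-treated arrays and no UT array was detected. The settings below that treat signals near the background gave no rise at 24 h. The UT arrays of 8 h gave levels of -7.71 and -7.03, those of 24 h gave -6.81, -7.29 and -6.47, those of 48 h gave -6.94 and -6.72, and those of 96 h gave -6.82, -7.06 and -6.24. With vit C the arrays of 8 h gave -3.98, -3.72 and -4.68, those of 24 h gave -5.48 and -4.65, those of 48 h gave -4.23 and -4.35, and those of 96 h gave -4.00 and -3.83. The lowest vit C-treated array thus stood above the highest UT array, and the 9 and 10 values did not overlap. As signals, the UT arrays gave 2.59 to 8.30 units, all under the dimmest detected spot, whereas those with vit C gave 8.32 to 63.5 units.

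At 8 h the mean MAGEA1 level was -4.13 ± 0.50 (SD, n = 3) with vit C and -7.37 ± 0.48 (SD, n = 2) without, a log2 difference of 3.25. Since no UT array was well above background, only a bound on the fold can be given, namely at least 2.14-fold higher at 8 h. This bound sets the vit C mean, arrays not detected included, against the higher of the UT signal and the dimmest detected signal of each UT array. It holds for that limit only, and the floor and background correction given below yielded smaller differences. At 96 h the means were -3.91 ± 0.12 (SD, n = 2) and -6.71 ± 0.42 (SD, n = 3), a log2 difference of 2.79 and at least 2.15-fold higher. The 48 h difference was 2.54, with MAGEA1 well above background on 1 of 2 vit C-treated arrays. Its bound of at least 1.24-fold includes the array not detected. At 24 h the difference was 1.79 with 1 of 2 vit C-treated arrays detected, the bound was under 1 and no fold is given. The vit C group means were lowest at 24 h, and the means at 8, 48 and 96 h lay within 1 SD of the 8 h group of each other.

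The size of the MAGEA1 difference rested on signals near the background. With the normexp background correction, which adds 50 units to every signal, the differences shrank to 0.68, 0.38 and 0.07 at 8, 48 and 96 h, and to -0.03 at 24 h. With signals floored at 20 units they were 0.42, 0.00, 0.19 and 0.56 at 8, 24, 48 and 96 h. Quantile normalization gave 3.05, 2.20, 2.80 and 2.85. Leaving out any 1 array kept the differences between 1.37 and 3.59.

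MAGEA4 showed a different time course. In UT cells it was well above background on all 5 arrays of 8 and 24 h and on none of the 5 arrays of 48 and 96 h. UT levels were -3.88 and -3.54 on the 8 h arrays, -3.61, -4.01 and -4.09 on those of 24 h, -5.00 and -5.79 on those of 48 h, and -5.44, -6.33 and -5.31 on those of 96 h. With vit C the 8 h arrays were at -3.13, -3.03 and -3.60, the 24 h arrays at -4.50 and -5.67, the 48 h arrays at -3.85 and -4.27, and the 96 h arrays at -2.76 and -2.70. In UT cells, then, the values of 96 h lay below those of 8 h, with a log2 difference of -1.98 and at least 2.41-fold lower at 96 h, while with vit C the highest values were those of 96 h.

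Between treatments MAGEA4 overlapped at 8 h (log2 difference 0.46), was lower with vit C at 24 h and was higher with vit C at 48 and 96 h. The 24 h means were -5.09 ± 0.83 (SD, n = 2) with vit C and -3.90 ± 0.26 (SD, n = 3) without, a log2 difference of -1.18. That value ranged from -1.77 without vit C replicate 1 to -0.60 without vit C replicate 2, which was the array not detected. At 48 h the difference was 1.34, at least 1.46-fold by the bound used for MAGEA1, with 1 of 2 vit C-treated arrays detected. The mean in that bound includes the array not detected. At 96 h the means were -2.73 ± 0.05 (SD, n = 2) and -5.69 ± 0.56 (SD, n = 3), a log2 difference of 2.96 and at least 4.78-fold higher with vit C. The direction at each time point was the same under each scaling tried, but the size was not. After normexp the differences were -0.55, 0.20 and 0.61 at 24, 48 and 96 h. With the floor of 20 units they were -0.57 and 0.42 at 24 and 48 h.

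MAGEA6 behaved in yet another way, with its highest levels in UT cells. UT levels were -4.09 and -3.20 on the arrays of 8 h, -2.11, -2.56 and -2.35 on those of 24 h, -1.60 and -1.69 on those of 48 h, and -3.35, -3.99 and -5.71 on those of 96 h. The UT values of 24 h lay above those of 8 h and those of 48 h above those of 24 h, whereas 96 h overlapped 8 h. Levels with vit C were -4.49, -4.99 and -4.49 on the arrays of 8 h, -3.05 and -3.39 on those of 24 h, -3.32 and -5.65 on those of 48 h, and -4.44 and -4.36 on those of 96 h. Every vit C-treated array lay below each UT array of the same time at 8, 24 and 48 h, and the groups overlapped at 96 h.

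The MAGEA6 log2 differences at 8, 24, 48 and 96 h were -1.01, -0.88, -2.84 and -0.05, respectively. After normexp they were -0.17, -0.55 and -1.04 at 8, 24 and 48 h. The 8 h value ranged from -1.46 without UT replicate 1 to -0.57 without UT replicate 2. At 48 h the UT mean was -1.65 ± 0.07 (SD, n = 2) and the vit C mean -4.48 ± 1.65 (SD, n = 2), with the 2 vit C values far apart. Without vit C replicate 2, which was not detected, the 48 h difference was -1.67, and without vit C replicate 1 it was -4.01. At 96 h the sign was positive when the percentile was taken over detected probes (0.04), without UT replicate 1 (0.45) and without UT replicate 2 (0.13). UT replicate 3 was not detected, and without it the difference was -0.73. The lowest 96 h value over the other settings was -0.62. The probe for MAGEA12, which matches 28 of 31 bases of the shared stretch printed above, stayed between 2.57 and 10.6 units on all arrays.

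**Figure D2:**
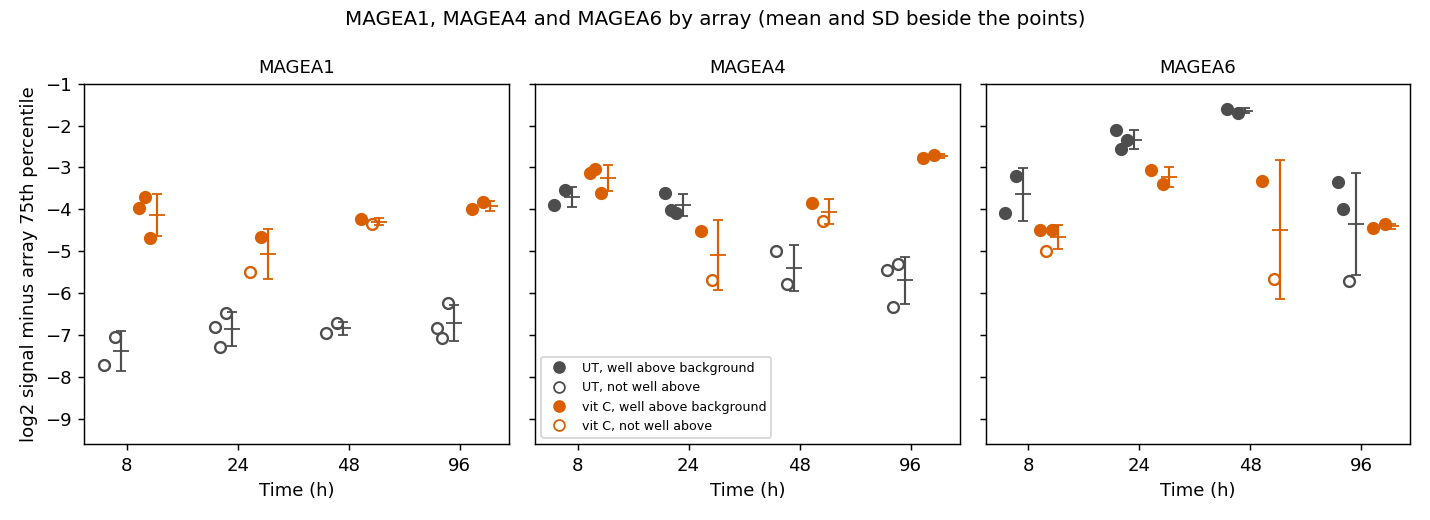
Level of MAGEA1, MAGEA4 and MAGEA6 (vertical axes, log2 signal minus the 75th percentile of the array) against time in h; each point is an array, filled where well above background, with the group mean and SD beside it. MAGEA1 lies above every UT array on each vit C-treated array on this scale (under normexp the 24 h difference was -0.03), MAGEA4 in vit C-treated cells is below UT at 24 h and above it at 96 h, and MAGEA6 is below UT at 8, 24 and 48 h.

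Arrays of UT and vit C-treated cells were spread unevenly over 4 slides. Slide 2 held 8 UT arrays only, slides 1 and 4 held vit C-treated arrays only, and slide 3 held UT replicates 2 and 3 of 96 h with 6 vit C-treated arrays of 8, 24 and 48 h. At 8, 24 and 48 h no slide held both treatments of the same time, and at 96 h the vit C-treated arrays stood alone on slide 1 with their own scan, so slide and treatment cannot be told apart at single time points. Within slide 3 MAGEA1 ranged from -7.06 to -6.24 on 2 UT arrays (0 detected) and from -5.48 to -3.72 on 6 vit C-treated arrays (5 detected), with no overlap. MAGEA4 ranged from -6.33 to -5.31 and from -5.67 to -3.03, and MAGEA6 from -5.71 to -3.99 and from -4.99 to -3.05, so that both overlapped there.

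With slide as a fixed block the MAGEA1 differences were 3.07, 1.62 and 2.42 at 8, 24 and 48 h. Those of MAGEA4 were 0.85, -0.80 and 1.93. Those of MAGEA6 turned to 0.48 and 0.62 at 8 and 24 h and were -0.17 at 48 h. This block rests on few arrays: only the UT group of 96 h lay on both slides 2 and 3, with MAGEA6 at -3.35 on slide 2 and at -3.99 and -5.71 on slide 3, the last not detected, and at 48 h it leaves 1 vit C-treated array, since slide 4 held only the other. At 96 h this fit could not be made. The vit C-treated arrays of 96 h also had the highest 75th percentiles (787.6 and 903.5) and the largest shares of detected probes (69.8% and 72.8%, against 57.5% to 68.7% on the other arrays).

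**Figure D3:**
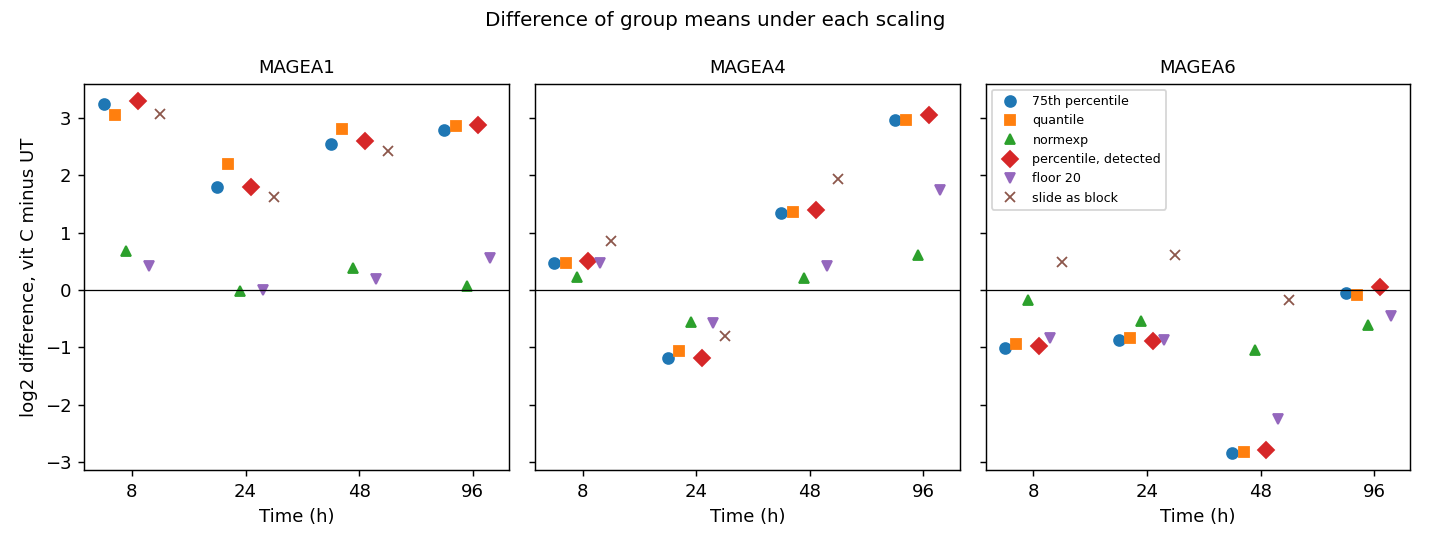
Log2 difference of group means, vit C minus UT (vertical axes), at each time in h for MAGEA1, MAGEA4 and MAGEA6 under the 75th percentile scaling and 5 other settings, with a line at 0. MAGEA1 stays at or above 0 except for -0.03 at 24 h with normexp, MAGEA4 keeps its sign at each time, and MAGEA6 changes sign at 8 and 24 h with slide as a block and at 96 h with the percentile over detected probes.

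The remaining probes gave isolated or no signals. One of the MAGEA10 probes was well above background on UT replicate 3 of 24 h (26.5 units, level -3.59) and on UT replicate 2 of 96 h (184.9 units, level -1.28) and nowhere else. The other MAGEA10 probe gave 3.69 and 3.00 units on those same arrays and was detected on none, so the probes of this gene disagreed. The former lists no gene of the reference used here, and the latter lists MAGEA10. Both MAGEA3 probes gave 2.43 to 4.00 units, and on all 19 arrays the scanner software had replaced their signal by a floor value. MAGEA8 reached 9.70 units, MAGEA9 4.68 and MAGEA11 14.2, each on its brightest array and without detection.

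Probes whose groups did not overlap were also counted over the whole family. At 8 h 1 of 11 probes (MAGEA1) was higher with vit C on all arrays, beside 14.3% of all probes, and 2 were lower (MAGEA6 and a MAGEA10 probe), beside 22.3%. At 24 h 1 was higher (MAGEA1, beside 11% of all probes) and 2 were lower (MAGEA4 and MAGEA6, beside 18.9%). At 48 h 2 were higher (MAGEA1 and MAGEA4, beside 21.2%) and 1 was lower (MAGEA6, beside 26.5%). At 96 h 2 were higher (MAGEA1 and MAGEA4, beside 11.2%) and 5 were lower (both probes of MAGEA3 and of MAGEA10, and that of MAGEA9, beside 26.3%). Those 5 were well above background on no vit C-treated array, and the median difference at 96 h over probes detected on no array was -0.93. Between UT 96 h and UT 8 h 1 was higher (MAGEA9, never detected, beside 16.4%) and 1 was lower (MAGEA4, beside 18.8%). Since these differences chose the family, nothing is read from these counts.

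The median log2 difference over the 9 genes, each by its brightest probe, was 0.13, -0.60, 0.14 and 0.13 at 8, 24, 48 and 96 h, and the median over all probes was -0.03, -0.18, 0.00 and -0.14. At 24 h the median over probes detected on no array was -0.56, and the family median was -0.10 with quantile normalization and 0 with the floor of 20 units. Between UT 96 h and UT 8 h the medians were 0.24 for the family and 0.03 for all probes. Of the 9 genes, 5 that entered these medians had no detected signal.

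The promoters of the family were read from RefSeq on GRCh38.p14, as the 250 bases before a transcript start. For 8 of the 10 genes 14 such windows were given, and MAGEA1 and MAGEA10 are named only. The windows of MAGEA4 (the upstream-most of 5 starts) and MAGEA6 are printed because these genes lay on opposite sides of their UT levels at 48 h; the capitals mark the letters GGATGTGA, which stood in all 14 windows.
MAGEA4, chrX:151912224-151912473, plus strand: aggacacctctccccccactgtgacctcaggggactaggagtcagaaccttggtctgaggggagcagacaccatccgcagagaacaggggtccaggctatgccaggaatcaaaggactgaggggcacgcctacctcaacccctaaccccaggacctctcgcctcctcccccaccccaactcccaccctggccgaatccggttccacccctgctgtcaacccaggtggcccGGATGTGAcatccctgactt
MAGEA6, chrX:152769690-152769939, minus strand: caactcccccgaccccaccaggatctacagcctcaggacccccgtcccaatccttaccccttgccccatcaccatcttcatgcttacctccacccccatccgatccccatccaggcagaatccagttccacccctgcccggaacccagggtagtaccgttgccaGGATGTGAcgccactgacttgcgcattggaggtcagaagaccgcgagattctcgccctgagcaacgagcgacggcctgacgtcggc
These letters were noticed in the windows and then counted. Searched on both strands, GGATGTGA occurred once in each of the 14 windows and in 339 of 35116 RefSeq promoter windows of the same length (0.965%). The 14 windows are not separate sites, since those of MAGEA12 overlap and share the occurrence, as do those of MAGEA2. The 339 windows include those of the family. The windows of MAGEA3 and MAGEA6 were identical over 250 of 250 bases, so the promoter letters do not separate the genes that the MAGEA6 probe lists together. The letters CCGGAA, which contain the GGAA core bound by ETS factors, occurred in the windows of MAGEA3 and MAGEA6 and in 14.5% of all windows. GGAA itself stood in every window of the family and in 92.7% of all windows, so the core does not set these genes apart. CpG dinucleotides numbered 5 to 18 per window with a median of 11, equal to the median of 11 over all windows. A match of letters is a description of the sequence and does not show that a factor was bound.

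Other cancer-testis genes were examined with limma, fitted to all probes with the 8 groups as means, and a gene was called at an absolute log2 difference of 1 or more and an adjusted p of 0.05 or less. Of 157 such genes outside the family 102 had a probe. At 8 h 1 of 88 tested was called, beside 0.549% of all genes tested (0.322% higher), and at 24 h 1 of 93, beside 1.65%. At 48 h 2 of 89 were called, both higher, beside 3.64% (2.08% higher and 1.56% lower). At 96 h 18 of 91 were called, 3 higher and 15 lower, beside 12.8% of all genes tested (2.72% higher and 10.1% lower), and none of the 15 lower genes was well above background on all arrays of a compared group. The median differences over these genes were -0.04, -0.34, 0.04 and -0.25 at 8, 24, 48 and 96 h, against the medians over all probes given above.

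FTHL17, an X-linked ferritin-like cancer-testis gene, was the gene called at 8 and 24 h and 1 of those called at 48 h. It rose with vit C by 1.78 ± 0.28 (SE) at 8 h (limma, adjusted p = 0.0192), by 1.55 ± 0.28 at 24 h (limma, adjusted p = 0.0136) and by 1.67 ± 0.30 at 48 h (limma, adjusted p = 0.00913). Its level at 48 h was 7.10 ± 0.06 (SD, n = 2) with vit C and 5.44 ± 0.01 (SD, n = 2) without, far above the array percentile, and it also rose between UT 8 h and UT 96 h by 1.43 (limma, adjusted p = 0.00178). None of the cancer-testis genes outside the family was called with slide as a fixed block at 8, 24 or 48 h. The 8 h call was lost without either UT replicate and without vit C replicate 1 or 2, and the 24 h call without either vit C replicate or with the compared groups alone in the fit. At 48 h none of these genes was called without UT replicate 2, without vit C replicate 2 or with the compared groups alone in the fit.

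At 96 h the genes called higher were SAGE1, CT45-1 and MAGEB2. SAGE1, an X-linked sarcoma antigen gene, was at -5.14 ± 0.28 (SD, n = 2) with vit C and at -7.22 ± 0.36 (SD, n = 3) on UT arrays, none of which was well above background (limma, adjusted p = 0.00164). Its vit C mean lay under the mean, over those UT arrays, of the dimmest detected level, so no fold is given. CT45-1 rose by 1.90 ± 0.50 (SE; limma, adjusted p = 0.0339), with 2 of 3 UT arrays detected. MAGEB2, the closest of these to the MAGEA genes as another type I MAGE, was well above background on all 19 arrays and rose by 1.08 ± 0.31 (SE; limma, adjusted p = 0.0398), from -0.36 ± 0.48 (SD, n = 3) to 0.72 ± 0.14 (SD, n = 2). The 96 h calls depended on single arrays: between 1 and 31 of these genes were called when 1 array was left out, 31 of them without UT replicate 3 and 1 without vit C replicate 1. None was called with the compared groups alone in the fit, with signals floored at 20 units or by the methods' t-test after Benjamini-Hochberg adjustment.

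Outside the A subfamily, MAGEB2 and MAGEC1 were the type I MAGE genes with signal on most arrays. Among the 14 type I MAGE genes on the array that are not members, MAGEA2B, MAGEA5 and MAGEA9B included, 6 were detected on no array. Limma called 0 of 12, 0 of 14, 0 of 12 and 4 of 14 at 8, 24, 48 and 96 h, beside 0.549%, 1.65%, 3.64% and 12.8% of all genes tested. With the same threshold on the difference but an unadjusted limma p of 0.05 or less, the counts were 0, 3, 1 and 5. Of the 4 called at 96 h, 1 (MAGEB2) was higher and 3 were lower, beside 2.72% and 10.1%, and the 3 were not well above background on all arrays of a compared group. In UT cells MAGEB2 fell by 1.46 on the log2 scale between 8 and 96 h (limma, adjusted p = 0.00363), and its vit C-treated arrays of 96 h lay above all UT arrays of that time. MAGEC1 was detected on 16 arrays, and its levels ran from -5.05 to -3.11 in UT and from -5.48 to -3.11 in vit C-treated cells. A MAGEA9B probe was detected on 10 arrays (4 UT and 6 vit C-treated), where its level lay between -4.96 and -4.16. The MAGEA5 probe was detected on 2 arrays, both of vit C at 96 h, but its levels overlapped there (means of -5.76 with vit C and -5.62 without), and the dimmest detected spot lay lower on those arrays (-5.73 and -6.07) than on any other.

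**Figure D4:**
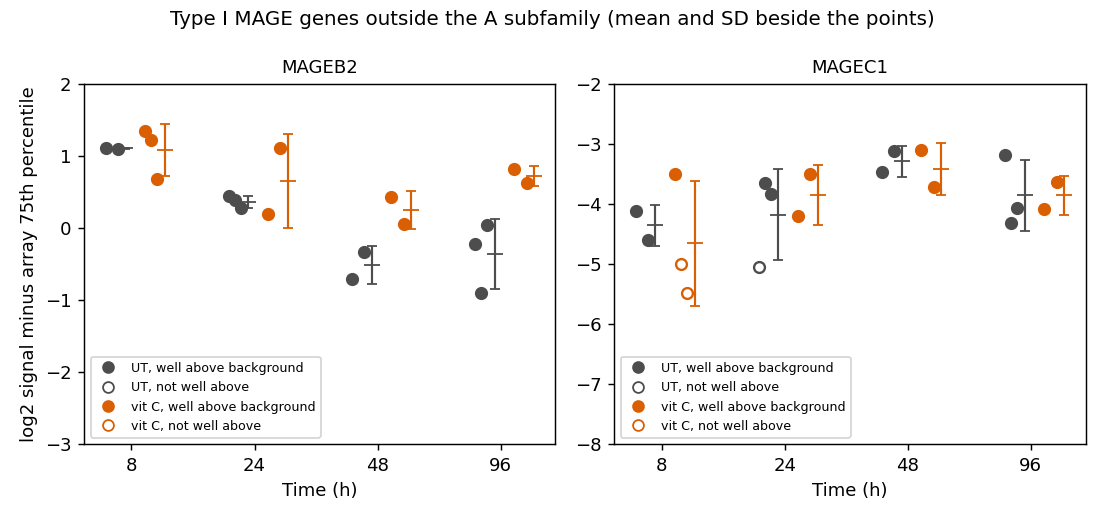
Level of MAGEB2 and MAGEC1 (vertical axes with different ranges, log2 signal minus the 75th percentile of the array) against time in h; each point is an array, filled where well above background, with the group mean and SD beside it. MAGEB2 at 96 h is at 0.82 and 0.62 with vit C and between -0.90 and 0.04 in UT cells, and MAGEC1 overlaps between treatments at each time.

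The type II MAGE genes, which are expressed in many normal tissues, differed from the family in detection. Of 11 such genes 7 were detected on all 19 arrays, among them MAGED2, MAGEF1 and MAGEH1, and 2 on none. At 8, 24 and 48 h 0 of 9 were called, and 0 had an absolute log2 difference of 1 or more with an unadjusted limma p of 0.05 or less. At 96 h 2 of 11 were called lower, beside 10.1% of all genes tested, neither of them well above background on all arrays of a compared group.

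Of 22 genes that encode known or proposed MAGE partners, 18 were detected on all arrays. LNX1, a RING-type ubiquitin ligase, was the only one called between treatments, at 96 h, where it was at -2.45 ± 0.13 (SD, n = 2) with vit C and at -5.48 ± 1.17 (SD, n = 3) without, where 1 of 3 arrays was detected (limma, adjusted p = 0.00205). Its second probe, not detected on any UT array of 96 h, was at least 2.47-fold higher. Counts of called partners were 0 of 19, 0 of 20, 0 of 18 and 1 of 20 at 8, 24, 48 and 96 h, beside 0.549%, 1.65%, 3.64% and 12.8% of all genes tested. With the same threshold on the difference but an unadjusted limma p of 0.05 or less, the counts were 0, 2, 1 and 2.

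Genes that write, read or remove CpG methylation, or that bind MAGE promoters, were mostly detected, 29 of 32 on all arrays. Between treatments 0 of 20, 1 of 24, 0 of 25 and 2 of 22 were called at 8, 24, 48 and 96 h, against 0.549%, 1.65%, 3.64% and 12.8% of all genes tested. With the same threshold on the difference but an unadjusted limma p of 0.05 or less, the counts were 0, 2, 1 and 2. UHRF1, which guides maintenance methylation to newly copied DNA, rose with vit C at 24 h by 1.13 ± 0.23 (SE; limma, adjusted p = 0.0286). At 96 h a probe of DNMT3A, a de novo methyltransferase, that was not its brightest fell by 1.01 on the log2 scale (limma, adjusted p = 0.00503), and the other gene called there was not detected on all arrays of a compared group. Over time in UT cells 11 of 26 were called between 8 and 96 h, 7 higher and 4 lower, beside 16.1% of all genes tested (8.9% higher and 7.18% lower). UHRF1 rose by 2.20 (limma, adjusted p = 1.03e-05) and the brightest DNMT3A probe fell by 1.72 on the log2 scale (limma, adjusted p = 6.06e-06).

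Markers placed the samples in the monocyte lineage. Of 14 monocyte and macrophage genes on the array 13 were detected on all 19 arrays, and their summed level ran from 9.12 to 9.52 in UT and from 8.93 to 9.44 in vit C-treated cells. Between treatments 2 of 13 were called lower at 48 h, the scavenger receptor MSR1 (brightest probe, log2 difference -1.10; limma, adjusted p = 0.0449) and the integrin ITGAM (-1.17; limma, adjusted p = 0.00322), beside 1.56% of all genes tested. At 96 h MSR1 was lower by 1.07 (limma, adjusted p = 0.0256) and LYZ, the lysozyme gene, higher by 1.17 (limma, adjusted p = 0.0422). Over time in UT cells 7 of 13 of these genes were called between 8 and 96 h, 3 higher and 4 lower, beside 16.1% of all genes tested. LYZ was among the lower and fell by 1.46 on the log2 scale (limma, adjusted p = 0.00846). Of 17 germ cell genes 1 (NANOS3) was detected on all arrays and 4 (TNP1, ZPBP, MAEL and TCP11) on none, with a summed level of -0.73 to 0.62 in UT and -0.995 to 0.484 in vit C-treated cells. Among the germ cell genes limma called 0 of 15, 1 of 15, 0 of 13 and 4 of 16 at 8, 24, 48 and 96 h, beside 0.549%, 1.65%, 3.64% and 12.8% of all genes tested, and of the 4 at 96 h 1 was higher and 3 were lower and not detected on all arrays of a compared group. DAZL, a germ cell RNA-binding protein gene, rose with vit C at 24 h by 1.99 ± 0.42 (SE; limma, adjusted p = 0.031), with 2 of 3 UT arrays detected, and at 96 h a probe of SYCP2, a gene of the synaptonemal complex, which was not its brightest probe, was at least 1.93-fold higher (limma, adjusted p = 0.0475). In UT cells alone DAZL was at least 4.15-fold higher at 96 h than at 8 h (limma, adjusted p = 5.6e-06), where no 8 h array was well above background. Of 19 genes of other cell types 8 were marked as detected on all arrays, among them ALB, and 3 (CDH5, CD3D and HBB) on none, with summed levels of 4.16 to 6.05 in UT and 4.08 to 5.17 with vit C. Of these, 0 of 13, 0 of 12, 1 of 14 and 5 of 16 were called at the 4 time points, the 1 of 48 h higher, and of the 5 at 96 h 1 was higher and 4 were lower and not detected on all arrays of a compared group, beside the same shares of all genes tested. DCN, a fibroblast proteoglycan gene, rose with vit C by 2.34 at 48 h (limma, adjusted p = 0.00833) and by 2.48 at 96 h (limma, adjusted p = 0.0019), and in UT cells alone it rose by 5.30 between 8 and 96 h (limma, adjusted p = 2.83e-07), with 1 of 2 arrays of 8 h detected. The part of other cells in the MAGEA levels was not tested, and in RNA from whole flasks fewer expressing cells and less RNA per cell cannot be told apart.

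Among 28512 other probes detected on as many arrays, those whose level ran most like that of the MAGEA6 probe over the 19 arrays included FLJ31222 (Pearson r = 0.91), NTN2L (0.89), FOXR2 (0.89) and C19orf24 (0.87). FOXR2 encodes a forkhead transcription factor. The points share arrays, slides and the percentile used for scaling, the genes were picked as the highest of many, and the values are given as a description.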

How the data were processed

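RNA of 19 flasks of THP-1 cells was labelled with Cy3 and hybridised to one-colour Agilent arrays designed on hg18. Per the labels and methods, the authors extracted spot intensities with Agilent Feature Extraction. The file headers give version 10.5.1.1 for its grid placement step, and the methods name a different version of the software. The deposited intensity used here is the background-subtracted processed signal with its detection flags. The authors' deposited log2 values equalled log2 of that intensity minus 1 constant per array (largest deviation 2.02e-06) and were used as an alternative.

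Spots of 1 probe were averaged on the log2 scale after control spots were removed (51538 of 52857 spots kept), and each array's 75th percentile was then taken off. Between 57.5% and 72.8% of probes per array were well above background, and the number of arrays, 2 or 3 a group, limits the precision. Differences were fitted with limma 3.58.1 in R 4.3.3 (lmFit on 8 group means over all 19 arrays, eBayes). As in the study's methods, genes with probes of opposite sign were left out, Benjamini-Hochberg adjustment followed, and calls needed an absolute log2 difference of 1 and an adjusted p of 0.05. The fit was tested on simulated data. Members and gene lists were chosen with earlier results of these data known. All member probes are named, and of the other lists at most 6 genes per list and treatment comparison called by a probe that the scanner detected throughout a compared group, by size. Genes called over time in UT cells are named where they were also named between treatments. Of the genes most like MAGEA6 over the arrays, 1 is not reported here. Alternatives were the scaling (quantile, percentile over detected probes, a floor of 20), normexp with an offset of 50, the slide, the replicate number and each replicate left out. Promoter sequences are from RefSeq on GRCh38.p14. Figures were drawn with matplotlib 3.10.9.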

Additional observations from a re-analysis of the deposited data

Results flagged for a closer look

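MAGEA4 moved in opposite directions with vit C at different times: every vit C-treated array lay below every UT array at 24 h (log2 difference -1.18) and above every UT array at 96 h (log2 difference 2.96). The difference between these time points was not tested, since the gene was chosen on its levels. The 24 h value rests on 2 vit C-treated arrays, at -4.50 and -5.67, against UT arrays between -4.09 and -3.61.

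For SAGE1 the vit C effects at the 4 time points differed from each other by a limma F test (adjusted p = 0.0475 over all probes). At 96 h it was called higher with vit C, but no UT array of that time was well above background and the bound on its fold was under 1.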

How the results depend on the processing

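Of 174 recomputed differences of MAGEA1, MAGEA4 and MAGEA6, 147 moved by less than the replicate spread and 27 by more, mostly with normexp, the floor of 20 and slide as a block. Signs that changed between treatments are given beside the values in the report. For UT 96 h minus 8 h the MAGEA6 difference of -0.71 ranged from -0.75 to 0.29 over settings and from -1.21 (without UT 96 h replicate 1) to -0.03 (without UT 96 h replicate 3) with 1 array left out, and that of MAGEA1, 0.67, went to 0 with the floor and from 0.33 to 1.01 without UT 8 h replicate 1 or 2. The family median moved beyond its spread to 0.73 with slide as a fixed block at 8 h, to -0.10 with quantile normalization and 0 with the floor at 24 h, to -0.62 with normexp at 96 h, and, with detected members alone, to 0.46, -2.84 and 2.79 at 8, 48 and 96 h and -1.34 for UT 96 h minus 8 h. Those last 4 medians are set by the filter, since members pass it through the group where they are high. Without 1 replicate the medians ranged from 0.06 to 0.26, -0.85 to -0.38, -0.08 to 0.36 and -0.09 to 0.34 at 8, 24, 48 and 96 h and from -0.06 to 0.43 over time in UT cells.

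Counts of called cancer-testis genes outside the family were 1, 1, 2 and 18 at 8, 24, 48 and 96 h. Over time in UT cells 14 of 90 tested were called, 11 higher and 3 lower, beside 16.1% of all genes tested. For the other settings the share of all genes called is not given, so the counts that follow are a description only. Slide as a fixed block gave 0 at 8, 24 and 48 h and 9 over time, could not be fitted at 96 h, and links slides 2 and 3 through the UT 96 h arrays alone. Slide as a random block gave 1 at 48 h. The compared groups alone gave 2, 0, 0, 0 and 6. The methods' t-test gave 0, 0, 0, 0 and 3 after Benjamini-Hochberg adjustment, and 3, 5 and 5 unadjusted at 8, 24 and 48 h. Quantile normalization gave 5 at 48 h and 3 at 96 h, and normexp gave 1 and 2. At 96 h the percentile over detected probes gave 8, an intensity trend 8, the floor 0 and leaving out dim probes 2. Without 1 replicate the counts ranged from 0 to 1, 0 to 1, 0 to 2 and 1 to 31 at 8, 24, 48 and 96 h and from 12 to 16 over time. At 48 h 0 were called without UT replicate 2 or vit C replicate 2.

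The replicate numbers did not pair the samples: correlations of deviations ran from -0.336 to 0.129. The replicate block gave 1 call at 48 h and 5 at 96 h, and the crossed pairing at 48 h, added after seeing the data, also gave 1. The causes of these changes were not tested. Signals near the background limit each MAGEA value.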
